A study of Homo sapiens with 12 samples.

Results

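Cholesterol synthesis and uptake genes were followed in RBE cells, an established human cholangiocarcinoma (bile duct cancer) line, in 12 poly(A) RNA-seq libraries. They are 27 genes listed by name, of 55773 gene entries in the count table, and all 27 were found there by symbol. They hold 8 enzymes from acetyl-CoA to the isoprenoid diphosphates and 11 enzymes that make squalene and turn it into cholesterol. The rest are 5 proteins of the SREBP pathway and 3 sterol carriers. The 4 groups of 3 libraries are AG120_Nutlin (22 days of 5 µM AG-120, then 72 hours of 5 µM Nutlin), vehicle_Nutlin (22 days of vehicle, then the same Nutlin treatment), AG120 (the same AG-120 treatment with DMSO in place of Nutlin) and vehicle (vehicle and DMSO). The labels do not say whether AG-120 stayed in the medium during the Nutlin treatment. AG-120, or ivosidenib, inhibits mutant IDH1, the enzyme that makes 2-hydroxyglutarate, and Nutlin blocks MDM2, which releases p53 from degradation. All libraries come from a single cell line grown in serum, a source of lipoprotein cholesterol, and the labels do not say whether replicates are separate cultures, so p-values measure the spread between these libraries, which may be technical.

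Cells build cholesterol from acetyl-CoA by the mevalonate pathway, which runs through isoprenoid diphosphates to squalene, and then by ring closure and trimming of the sterol. The transcription factors SREBP-1 and SREBP-2 (genes SREBF1 and SREBF2) switch on these enzymes when sterol in the endoplasmic reticulum is low. SCAP carries them to the Golgi for cleavage, and INSIG1 and INSIG2 hold SCAP back when sterol is plentiful. Sterol taken up in lipoproteins leaves the lysosome through NPC2 and NPC1, and excess sterol activates LXR, which turns on the export pumps.

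Library totals ran from 16840161 to 27499433 counts (median 19221201), and 15691 entries had enough counts to be tested. Levels are CPM, counts relative to the library's size scaled by the trimmed mean of M values (TMM), and calls were made where p, adjusted over all genes tested, was 0.05 or less. In vehicle_Nutlin replicates 1, 2 and 3, 7.58%, 11.8% and 15.0% of tested genes lay over 2-fold from the other libraries of the group. That share was 4.64% in AG120 replicate 1 and 1.77% to 3.10% in the remaining libraries. Below, the 3 libraries that stood apart means vehicle_Nutlin replicates 2 and 3 and AG120 replicate 1. Vehicle_Nutlin replicate 1, at a higher share than AG120 replicate 1, was kept in the fit without them, as the only library of its group. Targets of p53 were checked first. CDKN1A averaged 10227 ± 167 CPM in AG120_Nutlin cells and 446 ± 58.0 CPM in AG120 cells, and 8444 ± 837 CPM in vehicle_Nutlin cells and 380 ± 13.1 CPM in vehicle cells (SD, n = 3 each). MDM2 averaged 3343 ± 16.0 CPM in AG120_Nutlin cells and 163 ± 26.5 CPM in AG120 cells, and 2847 ± 694 CPM in vehicle_Nutlin cells and 146 ± 6.97 CPM in vehicle cells (SD, n = 3 each). All 9 biliary epithelial markers averaged at least 1 CPM over the libraries, and 5 of 6 hepatocyte, 4 of 6 fibroblast, 3 of 3 endothelial and 5 of 5 leukocyte markers in the table averaged less, with APOB, LUM, DCN, CD3E and CD68 at 0.

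Nutlin lowered most of the cholesterol genes in both pretreatments. In AG-120 cells 17 of the 26 tested genes fell and 5 rose, where 28.8% of all tested genes fell and 27% rose. In vehicle cells 15 fell and 4 rose, where 27.1% of all tested genes fell and 26.8% rose. The fall was at least 2-fold for 14 genes in AG-120 cells, against 15.2% of all tested genes, and for 14 genes in vehicle cells, against 13.9%. It was at least 4-fold for 10 genes in AG-120 cells (6.51% of all tested genes) and for 7 in vehicle cells (5.54%). The median log2 fold change of the 26 genes was -1.65 in AG-120 cells, beside 0.0013 over all tested genes, and -1.27 in vehicle cells, beside -0.015 over all tested genes. The libraries of the groups did not overlap for 17 genes lower and 6 higher in AG-120 cells, where 35.1% and 35.1% of all tested genes did not, and for 15 lower and 5 higher in vehicle cells, where 30.9% and 28.3% did not. NSDHL, a sterol 4-demethylation enzyme, held 51 counts over all 12 libraries and was not tested.

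Summed over the 19 synthesis enzymes, the level was 760 to 774 CPM in AG120_Nutlin cells against 2550 to 2907 CPM in AG120 cells, a 3.58-fold lower mean. It was 795 to 999 CPM in vehicle_Nutlin cells against 2136 to 2411 CPM in vehicle cells, a 2.67-fold lower mean. The libraries of each pair of groups did not overlap. Markers of proliferation moved with these genes: the summed level of 8 (MKI67, TOP2A, CCNB1, CCNA2, MCM2, MCM6, PCNA and TYMS) was 582 to 605 CPM in AG120_Nutlin cells against 2055 to 2309 CPM in AG120 cells, and 558 to 695 CPM in vehicle_Nutlin cells against 2346 to 2464 CPM in vehicle cells. Of these 8, 6 fell and 1 rose in both pretreatments. For these and the marker counts below, 28.8% of all tested genes fell and 27% rose in AG-120 cells, and 27.1% fell and 26.8% rose in vehicle cells. Fibroblast markers moved too: the summed level of 6 was 2.41 to 3.16 CPM in AG120_Nutlin cells against 38.6 to 43.4 CPM in AG120 cells, and 2.91 to 5.29 CPM in vehicle_Nutlin cells against 36.0 to 39.6 CPM in vehicle cells, with 2 of the 6 tested (COL1A1 and PDGFRB, which fell in both pretreatments) and LUM and DCN at 0. Hepatocyte markers went the other way: the summed level of 6 was 315 to 325 CPM in AG120_Nutlin cells against 152 to 167 CPM in AG120 cells, and 258 to 329 CPM in vehicle_Nutlin cells against 114 to 127 CPM in vehicle cells. Nearly all of it was SERPINA1, and 2 of the 6 were tested (SERPINA1 and TTR, which rose in both pretreatments), with APOB at 0. Of the 9 biliary markers 4 fell and 2 rose in each pretreatment, and their summed level was 5377 to 5653 CPM in AG120_Nutlin cells against 6522 to 8095 CPM in AG120 cells, and 6619 to 8610 CPM in vehicle_Nutlin cells against 5722 to 6111 CPM in vehicle cells. The part of these markers in the result was not tested. In bulk RNA fewer cells that express a gene and less RNA per cell cannot be told apart. In a fit without vehicle_Nutlin replicates 2 and 3 and AG120 replicate 1, 18 genes fell in AG-120 cells and 17 in vehicle cells, and these held all 17 and all 15 of the genes above. That fit leaves 1 vehicle_Nutlin library, which is assumed to vary like the other groups.

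**Figure D1:**
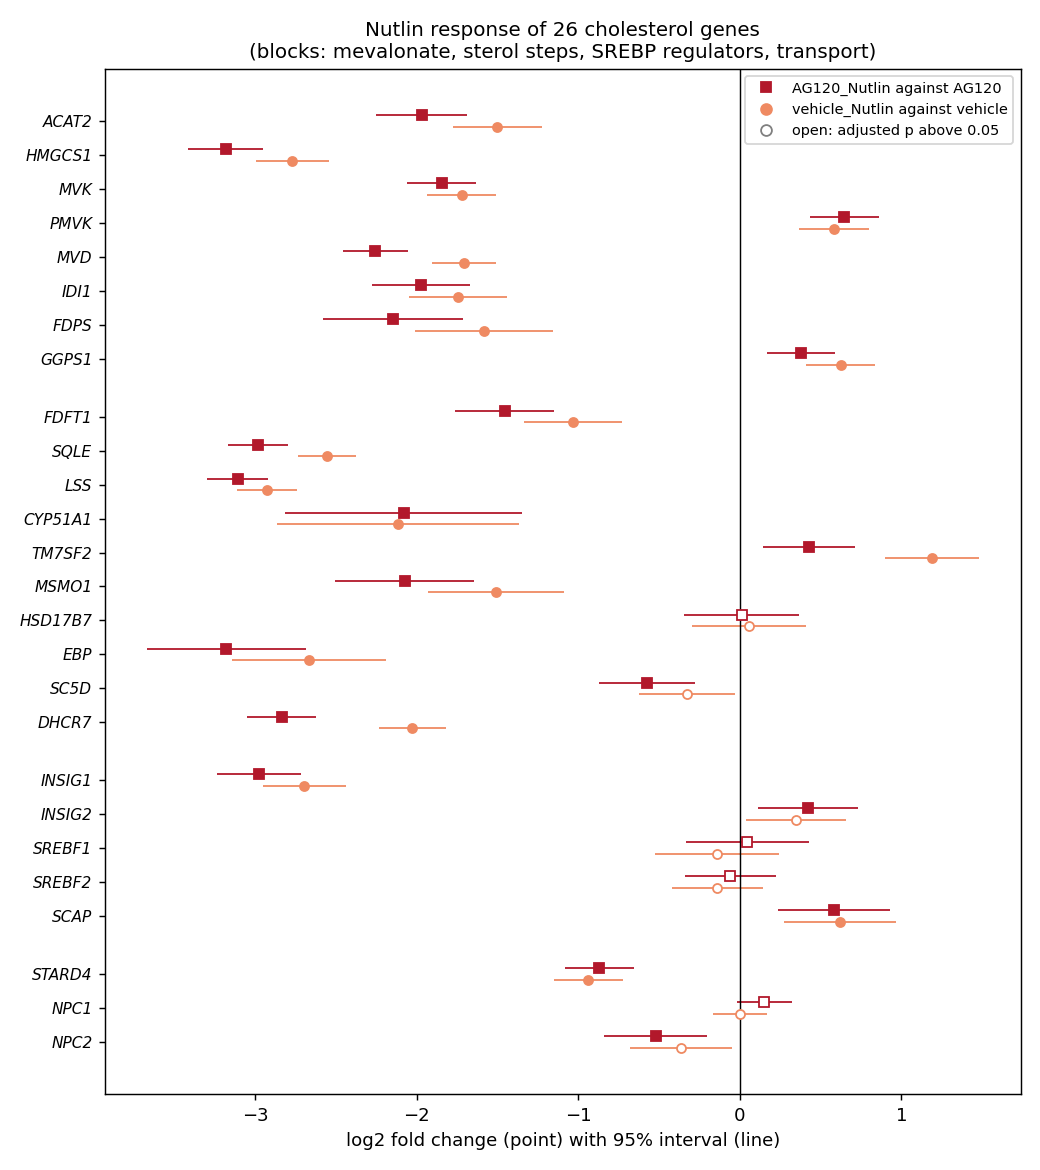
Log2 fold change with Nutlin (x axis; lines are 95% intervals) of the 26 tested cholesterol genes, in pathway order from top to bottom, for AG120_Nutlin against AG120 (squares) and vehicle_Nutlin against vehicle (circles); open symbols did not pass the test. Points lie left of 0 for most synthesis enzymes and for INSIG1, reaching -3.18 for HMGCS1 in AG-120 cells, and right of 0 for PMVK, GGPS1, TM7SF2 and SCAP.

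The promoters of 24 of the 27 genes have a RefSeq window (GRCh38.p14, 250 bases before to 50 after the start; 33 windows in all), and ACAT2, FDFT1 and SQLE have none. The sequences below show the 250 bases before the start of a gene for SREBP-2 itself and for 4 genes that fell steeply with Nutlin. HMGCS1 and DHCR7 have 2 windows each, and 1 of each is shown. Capitals mark CCAAT, the box bound by NF-Y, which reads ATTGG where it lies on the other strand, and TCACNCCAC, a core of the sterol regulatory element bound by SREBPs.
SREBF2 (chr22:41832855-41833104, plus strand): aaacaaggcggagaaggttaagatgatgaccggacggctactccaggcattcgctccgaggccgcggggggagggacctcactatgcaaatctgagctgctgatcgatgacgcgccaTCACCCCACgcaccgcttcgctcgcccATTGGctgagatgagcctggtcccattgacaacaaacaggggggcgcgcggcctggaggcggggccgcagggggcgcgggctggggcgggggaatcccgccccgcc
INSIG1 (chr7:155297628-155297877, plus strand): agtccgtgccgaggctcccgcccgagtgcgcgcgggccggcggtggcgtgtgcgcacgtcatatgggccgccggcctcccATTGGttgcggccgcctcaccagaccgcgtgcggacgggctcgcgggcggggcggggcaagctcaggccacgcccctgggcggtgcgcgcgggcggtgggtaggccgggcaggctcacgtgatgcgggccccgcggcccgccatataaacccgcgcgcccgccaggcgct
HMGCS1 (chr5:43313413-43313662, minus strand): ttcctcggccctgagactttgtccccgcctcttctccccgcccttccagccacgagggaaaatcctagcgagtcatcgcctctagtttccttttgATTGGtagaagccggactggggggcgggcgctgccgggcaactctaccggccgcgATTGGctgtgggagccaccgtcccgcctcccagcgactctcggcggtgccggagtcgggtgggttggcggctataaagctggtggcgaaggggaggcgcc
LSS (chr21:46228775-46229024, minus strand): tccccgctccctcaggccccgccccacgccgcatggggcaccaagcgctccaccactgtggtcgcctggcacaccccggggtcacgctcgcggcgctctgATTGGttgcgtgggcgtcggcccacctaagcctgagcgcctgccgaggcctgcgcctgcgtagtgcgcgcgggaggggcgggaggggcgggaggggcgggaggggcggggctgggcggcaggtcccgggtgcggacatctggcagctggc
DHCR7 (chr11:71448394-71448643, minus strand): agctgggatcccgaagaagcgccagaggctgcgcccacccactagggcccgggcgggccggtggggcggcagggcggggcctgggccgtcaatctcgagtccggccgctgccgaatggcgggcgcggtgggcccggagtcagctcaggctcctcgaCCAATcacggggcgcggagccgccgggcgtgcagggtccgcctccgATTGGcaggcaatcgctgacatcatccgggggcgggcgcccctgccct
Among the 24 genes, TCACNCCAC was found on either strand in SREBF2 alone, 125 to 133 bases before its start, in the spelling TCACCCCAC. It was in 1.13% of all 35116 RefSeq windows, and TCACCCCAC in 0.43%. CCAAT was found in 18 of the 24 genes and in 60.6% of their windows, against 34.6% of all windows. It was in 11 of the 12 genes that fell in both pretreatments and have a window, and in 7 of the other 12. Those 7 include NSDHL, which was not tested, and SC5D and NPC2, which fell in AG-120 cells. A gene was counted if any of its windows held the box, so counts of genes do not compare with the share of all windows. HMGCS1 holds it 96 to 100 and 151 to 155 bases before the start, and DHCR7 44 to 48 and 90 to 94 bases before. GGGCGG, the GC box of Sp1, was in 90.9% of these genes' windows against 45.0% of all windows, and TTTGAA, a cell cycle homology region, in 6.06% against 15.2%. All these genes are protein-coding, and among windows of protein-coding genes the shares were 56.3% for GGGCGG and 12.4% for TTTGAA. A match describes letters in this window, and the absence of a match says nothing of a factor's binding.

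Of the 8 mevalonate enzymes, 6 fell and 2 rose with Nutlin in both pretreatments. Of all tested genes 28.8% fell and 27% rose in AG-120 cells, and 27.1% fell and 26.8% rose in vehicle cells. HMGCS1 (hg19 chr5:43289497-43313614), which makes HMG-CoA, had 27.4, 31.2 and 28.5 CPM in AG120_Nutlin cells against 241, 265 and 285 CPM in AG120 cells, and 29.1, 33.1 and 28.6 CPM in vehicle_Nutlin cells against 217, 209 and 193 CPM in vehicle cells. Its log2 fold change was -3.18 ± 0.11 (SE; adjusted p = 9.241e-11) in AG-120 cells and -2.77 ± 0.10 (SE; adjusted p = 2.834e-10) in vehicle cells. No Nutlin library reached the lowest library without Nutlin, and the gap was wide beside the spread within groups. MVD (chr16:88718343-88729569), the decarboxylase that makes isopentenyl diphosphate, had 32.3, 31.0 and 33.0 CPM in AG120_Nutlin cells against 143, 147 and 169.6 CPM in AG120 cells, and 36.5, 37.4 and 38.2 CPM in vehicle_Nutlin cells against 129, 122 and 116 CPM in vehicle cells. Its log2 fold change was -2.26 ± 0.093 (SE; adjusted p = 5.349e-10) in AG-120 cells and -1.71 ± 0.091 (SE; adjusted p = 6.542e-09) in vehicle cells. FDPS (chr1:155278539-155290457), farnesyl diphosphate synthase, had 17.5, 18.8 and 15.3 CPM in AG120_Nutlin cells against 84.1, 63.1 and 81.5 CPM in AG120 cells, and 18.2, 16.8 and 29.5 CPM in vehicle_Nutlin cells against 56.2, 70.4 and 67.5 CPM in vehicle cells. Replicate 3 was the high vehicle_Nutlin library for FDPS, and the groups still did not overlap, with log2 fold changes of -2.15 ± 0.20 (SE; adjusted p = 1.187e-06) in AG-120 cells and -1.58 ± 0.20 (SE; adjusted p = 1.784e-05) in vehicle cells.

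IDI1 (chr10:1085848-1095110), which isomerises isopentenyl diphosphate, had 54.0, 52.7 and 53.9 CPM in AG120_Nutlin cells against 162, 233 and 236 CPM in AG120 cells, and 53.5, 52.4 and 62.3 CPM in vehicle_Nutlin cells against 197, 196 and 171 CPM in vehicle cells. ACAT2 (chr6:160181360-160200144), which condenses acetyl-CoA to acetoacetyl-CoA, had 21.5, 21.3 and 20.8 CPM in AG120_Nutlin cells against 79.7, 84.4 and 85.1 CPM in AG120 cells, and 20.5, 24.6 and 31.0 CPM in vehicle_Nutlin cells against 74.1, 73.8 and 68.0 CPM in vehicle cells. MVK (chr12:110011060-110035067), mevalonate kinase, had 21.8, 21.7 and 20.4 CPM in AG120_Nutlin cells against 74.3, 75.0 and 80.3 CPM in AG120 cells, and 21.2, 18.8 and 22.0 CPM in vehicle_Nutlin cells against 75.0, 66.0 and 63.9 CPM in vehicle cells. All 3 genes were lower in every Nutlin library, with log2 fold changes in AG-120 and vehicle cells of -1.97 and -1.74 for IDI1, -1.97 and -1.50 for ACAT2 and -1.84 and -1.72 for MVK. The enzymes that rose were PMVK and GGPS1. PMVK (chr1:154897210-154909467), phosphomevalonate kinase, had 58.7, 60.3 and 54.9 CPM in AG120_Nutlin cells against 34.5, 37.0 and 39.5 CPM in AG120 cells, and 51.5, 55.7 and 62.8 CPM in vehicle_Nutlin cells against 36.6, 40.4 and 36.5 CPM in vehicle cells. Its log2 fold change was 0.65 ± 0.10 (SE; adjusted p = 0.0001083) in AG-120 cells and 0.58 ± 0.10 (SE; adjusted p = 0.0002765) in vehicle cells, the opposite sign to the kinase before it and the decarboxylase after it. GGPS1 (chr1:235490665-235507847), which leads from the sterol route to geranylgeranyl diphosphate, had 54.3, 55.8 and 54.0 CPM in AG120_Nutlin cells against 45.1, 41.2 and 39.8 CPM in AG120 cells, and 57.3, 56.7 and 66.7 CPM in vehicle_Nutlin cells against 37.3, 42.6 and 37.4 CPM in vehicle cells, with log2 fold changes of 0.38 ± 0.098 (SE; adjusted p = 0.004881) in AG-120 cells and 0.62 ± 0.098 (SE; adjusted p = 0.0001373) in vehicle cells.

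**Figure D2:**
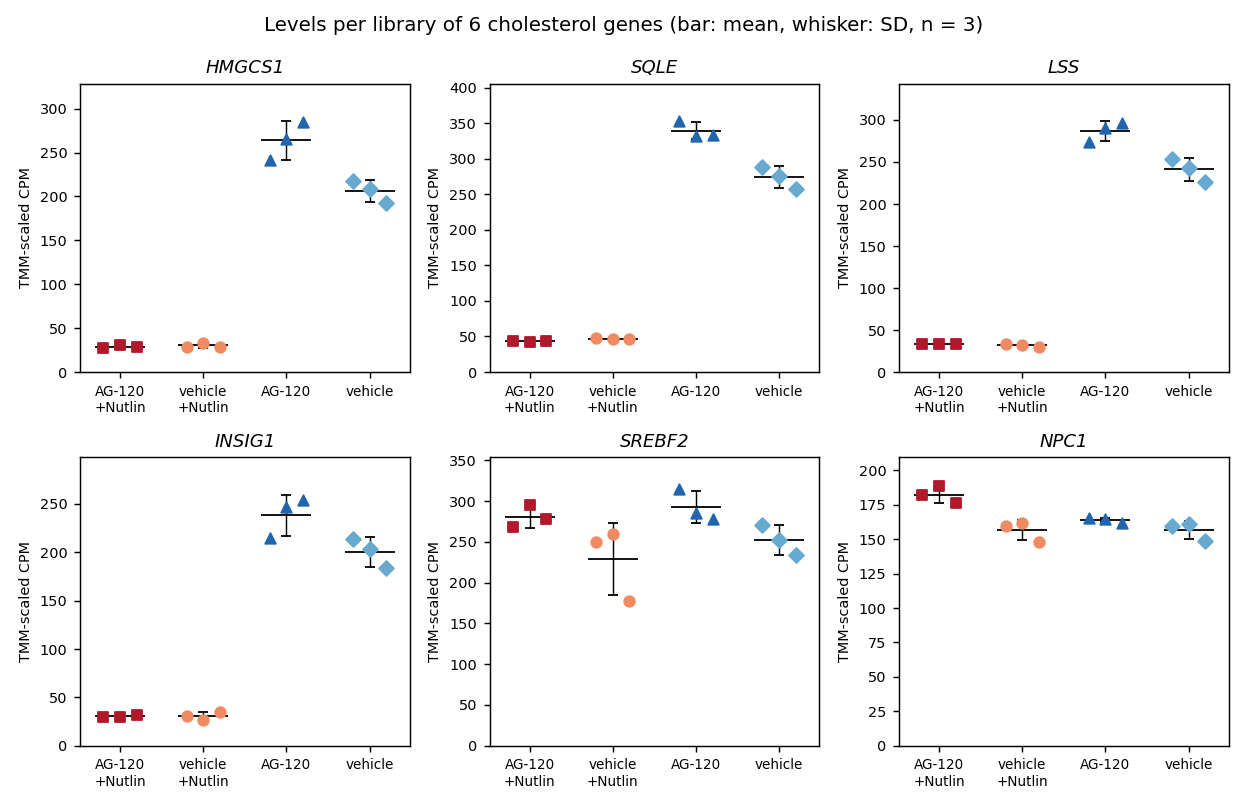
TMM-scaled CPM (y axis, from 0) in each library of the 4 groups for HMGCS1, SQLE, LSS, INSIG1, SREBF2 and NPC1; bars are means and whiskers SD, n = 3. The first 4 genes are low in all 6 Nutlin libraries, SREBF2 overlaps between libraries with and without Nutlin in both pretreatments, and its vehicle_Nutlin replicate 3 lies at 178 CPM.

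Of the 10 tested enzymes that make squalene and turn it into cholesterol, 8 fell in AG-120 cells and 7 in vehicle cells. TM7SF2 alone rose. The share of all tested genes that fell was 28.8% in AG-120 cells and 27.1% in vehicle cells, and 27% and 26.8% rose. SQLE (chr8:126010739-126034525), the squalene epoxidase that starts the sterol branch, had 43.3, 42.2 and 43.3 CPM in AG120_Nutlin cells against 353, 332 and 333 CPM in AG120 cells, and 47.3, 46.8 and 45.8 CPM in vehicle_Nutlin cells against 289, 276 and 257 CPM in vehicle cells. LSS (chr21:47608055-47648738), which closes the ring to lanosterol, had 33.0, 33.3 and 33.5 CPM in AG120_Nutlin cells against 274, 291 and 297 CPM in AG120 cells, and 33.1, 31.7 and 30.3 CPM in vehicle_Nutlin cells against 254, 243 and 227 CPM in vehicle cells. Log2 fold changes were -2.98 ± 0.084 (SE; adjusted p = 2.729e-11) in AG-120 cells and -2.55 ± 0.083 (SE; adjusted p = 7.805e-11) in vehicle cells for SQLE. For LSS they were -3.11 ± 0.087 (SE; adjusted p = 2.547e-11) in AG-120 cells and -2.93 ± 0.087 (SE; adjusted p = 4.365e-11) in vehicle cells. Both genes varied little among Nutlin libraries and were several-fold higher in every library without it. EBP (chrX:48379546-48387104), a sterol isomerase, had 9.83, 8.92 and 8.23 CPM in AG120_Nutlin cells against 77.2, 84.8 and 82.4 CPM in AG120 cells, and 11.6, 7.13 and 16.9 CPM in vehicle_Nutlin cells against 79.0, 77.7 and 71.2 CPM in vehicle cells. Its log2 fold changes were -3.18 ± 0.23 (SE; adjusted p = 8.81e-08) in AG-120 cells and -2.67 ± 0.22 (SE; adjusted p = 4.035e-07) in vehicle cells.

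DHCR7 (chr11:71139239-71163914), which catalyses the last step of the route to cholesterol, had 46.8, 54.5 and 48.3 CPM in AG120_Nutlin cells against 356, 351 and 360.0 CPM in AG120 cells, and 66.1, 70.2 and 73.3 CPM in vehicle_Nutlin cells against 308, 286 and 261 CPM in vehicle cells. Its log2 fold changes were -2.84 ± 0.099 (SE; adjusted p = 1.292e-10) in AG-120 cells and -2.03 ± 0.096 (SE; adjusted p = 2.068e-09) in vehicle cells. MSMO1 (chr4:166248775-166264312), a sterol methyl oxidase, had 78.4, 77.5 and 81.9 CPM in AG120_Nutlin cells against 244, 375 and 383 CPM in AG120 cells, and 86.4, 82.1 and 132 CPM in vehicle_Nutlin cells against 295, 306 and 253 CPM in vehicle cells. It was the most abundant of the 27 genes per kilobase of exon in vehicle cells, at 98.5 ± 9.62 CPM per kilobase (SD, n = 3), and the fourth in AG120_Nutlin cells, at 27.4 ± 0.791. FDFT1 (chr8:11653082-11696818), which makes squalene, had 89.0, 91.7 and 95.1 CPM in AG120_Nutlin cells against 219, 267 and 271 CPM in AG120 cells, and 96.0, 92.4 and 134 CPM in vehicle_Nutlin cells against 232, 229 and 201 CPM in vehicle cells. CYP51A1 (chr7:91741465-91772266), lanosterol demethylase, had 3.62, 2.86 and 1.29 CPM in AG120_Nutlin cells against 13.2, 7.56 and 12.2 CPM in AG120 cells, and 1.59, 1.56 and 2.65 CPM in vehicle_Nutlin cells against 6.72, 10.5 and 8.36 CPM in vehicle cells. CYP51A1 was sparse and uneven between libraries, but its groups did not overlap. Log2 fold changes in AG-120 and vehicle cells were -2.07 and -1.51 for MSMO1, -1.46 and -1.03 for FDFT1 and -2.08 and -2.12 for CYP51A1.

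TM7SF2 (chr11:64879317-64883856), a sterol C14 reductase, had 114, 119 and 126 CPM in AG120_Nutlin cells against 98.5, 83.4 and 84.7 CPM in AG120 cells, and 114, 120.3 and 155 CPM in vehicle_Nutlin cells against 63.3, 59.1 and 48.7 CPM in vehicle cells. Its log2 fold changes were 0.43 ± 0.13 (SE; adjusted p = 0.01458) in AG-120 cells and 1.19 ± 0.13 (SE; adjusted p = 7.576e-06) in vehicle cells. The call in AG-120 cells was lost without AG120_Nutlin replicate 3 (adjusted p = 0.05632) or without AG120 replicate 2 (adjusted p = 0.05255). SC5D (chr11:121163162-121179403), a sterol desaturase, had 19.7, 18.2 and 19.5 CPM in AG120_Nutlin cells against 25.5, 29.5 and 30.5 CPM in AG120 cells, and 19.2, 16.4 and 24.3 CPM in vehicle_Nutlin cells against 25.9, 26.4 and 23.0 CPM in vehicle cells. It fell in AG-120 cells (-0.57 ± 0.14 (SE; adjusted p = 0.003118)), and in vehicle cells its log2 fold change was -0.32 ± 0.14 (SE; adjusted p = 0.06189). Without vehicle_Nutlin replicate 3, its high library, the vehicle value was -0.50 (adjusted p = 0.002003), and it was also called with library totals (0.02865) and by limma voom (0.003112). HSD17B7 (chr1:162760492-162782607), a keto-reductase of the same branch, had 34.5, 33.4 and 35.6 CPM in AG120_Nutlin cells against 25.6, 39.6 and 37.6 CPM in AG120 cells, and 31.7, 30.6 and 43.0 CPM in vehicle_Nutlin cells against 35.7, 33.5 and 32.0 CPM in vehicle cells, and its groups overlapped. Its 95% intervals were -0.34 to 0.37 in AG-120 cells and -0.30 to 0.41 in vehicle cells, on the log2 scale.

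Of the 5 SREBP pathway genes, INSIG1 was the gene that fell in both pretreatments. INSIG1 (chr7:155089486-155101945), itself a target of SREBPs, had 29.9, 29.7 and 31.4 CPM in AG120_Nutlin cells against 215, 246 and 254 CPM in AG120 cells, and 30.5, 26.8 and 35.4 CPM in vehicle_Nutlin cells against 214, 203 and 184 CPM in vehicle cells. Its log2 fold changes were -2.97 ± 0.12 (SE; adjusted p = 4.541e-10) in AG-120 cells and -2.69 ± 0.12 (SE; adjusted p = 1.132e-09) in vehicle cells. Its relative INSIG2 (chr2:118846028-118868573) had 43.6, 45.9 and 43.3 CPM in AG120_Nutlin cells against 24.3, 38.9 and 36.0 CPM in AG120 cells, and 46.2, 41.0 and 44.5 CPM in vehicle_Nutlin cells against 34.5, 36.0 and 33.1 CPM in vehicle cells. INSIG2 rose in AG-120 cells (0.42 ± 0.14 (SE; adjusted p = 0.02342)), and in vehicle cells its log2 fold change was 0.35 ± 0.14 (SE; adjusted p = 0.0569). The call in AG-120 cells was lost without AG120_Nutlin replicate 1 (adjusted p = 0.05088) or replicate 2 (adjusted p = 0.06587), and with scaling by library totals (adjusted p = 0.05511). The vehicle value was called without AG120 replicate 1 (adjusted p = 0.003531) or replicate 2 (adjusted p = 0.0425), in a fit of those groups alone (0.02597) and by limma voom (0.00501).

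The SREBP genes themselves did not pass the test in either pretreatment. SREBF2 (chr22:42229109-42303312) had 268, 295 and 279 CPM in AG120_Nutlin cells against 315, 285 and 277 CPM in AG120 cells, and 249, 259.8 and 178 CPM in vehicle_Nutlin cells against 271, 253 and 234 CPM in vehicle cells, and the groups overlapped. Its 95% intervals on the log2 scale were -0.34 to 0.22 in AG-120 cells and -0.42 to 0.14 in vehicle cells. SREBF1 (chr17:17713713-17740325) had 207, 222 and 213 CPM in AG120_Nutlin cells against 205, 209 and 207 CPM in AG120 cells, and 229, 239 and 128 CPM in vehicle_Nutlin cells against 229.9, 224 and 204 CPM in vehicle cells. Replicate 3 of vehicle_Nutlin was well below the other libraries for both genes. The 95% intervals for SREBF1 were -0.34 to 0.43 in AG-120 cells and -0.52 to 0.24 in vehicle cells. SCAP (chr3:47455203-47518616), the escort of SREBPs, had 155, 169 and 164 CPM in AG120_Nutlin cells against 142, 95.2 and 87.7 CPM in AG120 cells, and 153, 144 and 117 CPM in vehicle_Nutlin cells against 94.9, 87.3 and 86.7 CPM in vehicle cells, with log2 fold changes of 0.58 ± 0.16 (SE; adjusted p = 0.007285) in AG-120 cells and 0.62 ± 0.16 (SE; adjusted p = 0.005493) in vehicle cells.

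Among the 3 sterol carriers, STARD4 fell in both pretreatments. STARD4 (chr5:110831731-110848288), a soluble sterol carrier, had 26.7, 24.3 and 25.2 CPM in AG120_Nutlin cells against 44.2, 48.3 and 46.7 CPM in AG120 cells, and 21.2, 20.0 and 24.8 CPM in vehicle_Nutlin cells against 42.0, 43.4 and 41.3 CPM in vehicle cells. Its log2 fold changes were -0.87 ± 0.099 (SE; adjusted p = 7.068e-06) in AG-120 cells and -0.94 ± 0.099 (SE; adjusted p = 4.039e-06) in vehicle cells. NPC1 (chr18:21086148-21166862), the lysosomal membrane transporter, had 182, 188 and 176 CPM in AG120_Nutlin cells against 165, 165 and 162 CPM in AG120 cells, and 159.7, 162 and 148 CPM in vehicle_Nutlin cells against 159.8, 161 and 149 CPM in vehicle cells. Its log2 fold change was 0.15 ± 0.078 (SE; adjusted p = 0.1146) in AG-120 cells, where the call was made without vehicle_Nutlin replicate 3 (adjusted p = 0.04179), by limma voom (0.005067) and without the 3 libraries that stood apart (0.01136), and its 95% interval in vehicle cells was -0.17 to 0.17. NPC2 (chr14:74942895-74960880), the soluble lysosomal protein that hands sterol to NPC1, had 35.1, 36.9 and 36.7 CPM in AG120_Nutlin cells against 42.1, 55.8 and 58.2 CPM in AG120 cells, and 37.1, 35.8 and 50.5 CPM in vehicle_Nutlin cells against 52.3, 57.1 and 49.7 CPM in vehicle cells. NPC2 fell in AG-120 cells (-0.52 ± 0.15 (SE; adjusted p = 0.008789)), and its value in vehicle cells was -0.36 ± 0.15 (SE; adjusted p = 0.05107), which was called without vehicle_Nutlin replicate 3 (adjusted p = 0.001173) or AG120 replicate 1 (adjusted p = 0.02709). It was also called with library totals (0.02678), with no filter (0.03167), with a filter of 1 CPM in 3 libraries (0.0474) and by limma voom (0.0002301).

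Deviations of libraries from the mean of the other libraries of their group followed gene length to different degrees. In vehicle_Nutlin cells, over the 26 genes the Spearman correlation of deviation with summed exon length was -0.648 in replicate 3, 0.509 in replicate 2 and 0.582 in replicate 1. These are correlations across genes of shared libraries, so the points are not independent. The deviations of a gene also cancel within its group, so the correlations of libraries of the same group depend on each other. Over 13510 tested genes with a length the values were -0.304, 0.189 and 0.279. Other groups held such correlations too: over those genes they were 0.340, -0.203 and -0.323 in AG120 replicates 1, 2 and 3 (0.178, -0.0810 and -0.347 over the 26), and vehicle replicate 2 had -0.551 over the 26 and -0.0781 over all. The remaining vehicle and AG120_Nutlin libraries lay between -0.0635 and 0.0790 over all those genes and between -0.156 and 0.329 over the 26. SREBF1, 8030 bases long, deviated by -0.87 on the log2 scale in replicate 3, and EBP, 2409 bases long, by 0.89. The part of length in the differences was not tested.

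**Figure D3:**
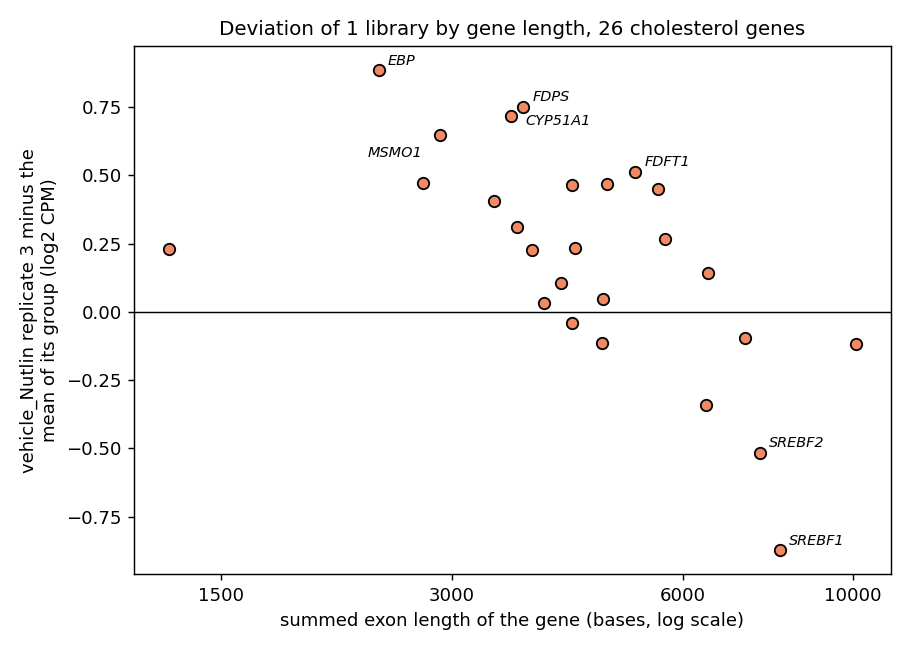
Deviation of vehicle_Nutlin replicate 3 from the mean of the other libraries of its group (y axis, log2 CPM) against summed exon length (x axis, bases, log scale) for the 26 tested cholesterol genes, each a point. Short genes such as EBP lie above 0 and the long SREBF1 and SREBF2 lie below it, with a Spearman correlation of -0.648.

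Other genes of sterol handling, 50 in 8 lists by function with 46 tested, were called no more often than genes at large. In AG-120 cells 12 rose and 11 fell, where 27% and 28.8% of all tested genes did, and in vehicle cells 12 rose and 8 fell, where 26.8% and 27.1% did. Medians of the 46 were 0.025 and 0.060 on the log2 scale. Of the 6 LXR and efflux genes, 4 rose in both pretreatments and 1 fell in AG-120 cells. ABCA1, which exports cholesterol, had 298, 303 and 315 CPM in AG120_Nutlin cells against 48.8, 50.3 and 42.4 CPM in AG120 cells, and 254, 234 and 193 CPM in vehicle_Nutlin cells against 46.2, 44.2 and 46.5 CPM in vehicle cells. ABCG1, a partner exporter, had 13.9, 13.9 and 12.7 CPM in AG120_Nutlin cells against 0.728, 0.736 and 1.05 CPM in AG120 cells, and 17.3, 14.8 and 20.1 CPM in vehicle_Nutlin cells against 0.852, 1.70 and 1.55 CPM in vehicle cells. MYLIP, a ubiquitin ligase for lipoprotein receptors, had 23.6, 23.6 and 24.1 CPM in AG120_Nutlin cells against 6.64, 7.02 and 7.49 CPM in AG120 cells, and 21.4, 25.5 and 20.7 CPM in vehicle_Nutlin cells against 8.22, 8.20 and 8.18 CPM in vehicle cells. All 3 were higher in every Nutlin library, with log2 fold changes of 2.69 ± 0.11 (SE; adjusted p = 6.328e-10) in AG-120 cells and 2.32 ± 0.11 (SE; adjusted p = 2.538e-09) in vehicle cells for ABCA1. They were 4.01 ± 0.24 (SE; adjusted p = 1.521e-08) in AG-120 cells and 3.66 ± 0.22 (SE; adjusted p = 2.214e-08) in vehicle cells for ABCG1. For MYLIP they were 1.75 ± 0.11 (SE; adjusted p = 3.205e-08) in AG-120 cells and 1.46 ± 0.11 (SE; adjusted p = 1.981e-07) in vehicle cells.

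Of the 8 genes of intracellular sterol transport, 2 rose and 3 fell in AG-120 cells, and 2 fell in vehicle cells. Of all tested genes 27% rose and 28.8% fell in AG-120 cells, and 26.8% rose and 27.1% fell in vehicle cells. TMEM97, a sterol-binding membrane protein, had 25.0, 25.2 and 25.5 CPM in AG120_Nutlin cells against 232, 196 and 189.7 CPM in AG120 cells, and 28.5, 28.0 and 30.7 CPM in vehicle_Nutlin cells against 172, 186 and 167 CPM in vehicle cells. Its log2 fold changes were -3.03 ± 0.10 (SE; adjusted p = 9.855e-11) in AG-120 cells and -2.59 ± 0.10 (SE; adjusted p = 3.66e-10) in vehicle cells. GRAMD1B, which moves sterol from the plasma membrane inwards, changed by -1.15 and -0.74 on the log2 scale in AG-120 and vehicle cells and was called in both. GRAMD1C fell in AG-120 cells (-1.79 ± 0.56 (SE; adjusted p = 0.0159)), with a vehicle value of -0.63 ± 0.52 (SE; adjusted p = 0.3268). Of the 6 lipoprotein uptake genes, 2 rose and 1 fell in both pretreatments, where 27% and 28.8% of all tested genes did in AG-120 cells and 26.8% and 27.1% in vehicle cells. LRP1, a large endocytic receptor, had 618, 646 and 629 CPM in AG120_Nutlin cells against 121, 101 and 83.8 CPM in AG120 cells, and 497, 515 and 89.3 CPM in vehicle_Nutlin cells against 86.4, 72.0 and 64.8 CPM in vehicle cells. Its vehicle_Nutlin replicate 3 was close to the libraries without Nutlin, and log2 fold changes were 2.63 ± 0.46 (SE; adjusted p = 0.0003052) in AG-120 cells and 2.30 ± 0.45 (SE; adjusted p = 0.0008734) in vehicle cells. LRPAP1, its chaperone, changed by 1.95 and 1.75 in AG-120 and vehicle cells and was called in both.

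In the non-sterol branch of 13 genes, 2 rose and 4 fell in AG-120 cells, and 4 rose and 4 fell in vehicle cells, where 27% and 28.8% of all tested genes rose and fell in AG-120 cells and 26.8% and 27.1% in vehicle cells. RABGGTA, a subunit of the Rab geranylgeranyl transferase, changed by 1.95 and 1.96 on the log2 scale in AG-120 and vehicle cells. ICMT, which methylates prenylated proteins, changed by -0.94 and -0.96, and PDSS1, which makes the ubiquinone side chain, by -1.63 and -1.33, all called. C14orf1, the scaffold ERG28, changed by -1.10 and -0.92 and was called in both, while CYP46A1, a sterol hydroxylase, was under 1 CPM in every library and was not called. LIPA, the lysosomal acid lipase, rose by 0.82 and 1.22 in AG-120 and vehicle cells, and NCEH1 and SOAT1 of the same esterification list had values of -0.29 and 0.02 in AG-120 cells, not called. MBTPS1, the first protease of SREBP cleavage, rose by 0.57 and 0.48, and MBTPS2, the second, had values of -0.04 and 0.11, not called. Of the 6 genes of sterol-dependent degradation, UBXN8 fell in AG-120 cells (-0.48 ± 0.13 (SE; adjusted p = 0.007445)), and VCP had a value of -0.18 there, not called.

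AG-120 had small effects on the cholesterol genes. In the presence of Nutlin, DHCR7 was the only one of 26 called, and it fell, where 1.93% of all tested genes fell and 0.433% rose. DHCR7 had 46.8, 54.5 and 48.3 CPM in AG120_Nutlin cells against 66.1, 70.2 and 73.3 CPM in vehicle_Nutlin cells, without overlap, and its log2 fold change was -0.49 ± 0.094 (SE; adjusted p = 0.01931). The call was lost without AG120_Nutlin replicate 1 (adjusted p = 0.12), replicate 2 (0.05362) or replicate 3 (0.1196), and in a fit of these groups alone (0.177). In the same comparison 3 of 8 proliferation, 1 of 9 biliary and 1 of 2 tested fibroblast markers fell, and their part in the result was not tested. SREBF2 was higher in every AG120_Nutlin library than in any vehicle_Nutlin library, at 0.29 ± 0.13 (SE; adjusted p = 0.2389), and did not pass the test. The groups did not overlap for 3 genes higher and 5 lower, where 14.2% and 14.1% of all tested genes did not.

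Without Nutlin, edgeR called 0 of 26 genes in AG120 against vehicle cells, where 0.051% of all tested genes rose and 0% fell. At an unadjusted p under 0.05 there were 7, all higher, and the share of all tested genes at that level is not given here. DESeq2 called 2 of the 26 genes higher, beside 74 genes of all. With limma voom 11 of the 26 were called higher, beside 601 genes of all. Leaving out vehicle_Nutlin replicate 3 alone gave 6 calls, and leaving out 1 library in turn gave 1 to 198 genes of all higher. The log2 fold change was positive for 22 of 26 genes, where 50% of all tested genes were positive, with a median of 0.20 beside 0 over all tested genes. For 11 genes every AG120 library was higher than every vehicle library (11.4% of all tested genes), and for none of the 26 lower (10.3%). In the marker lists, 7 of 9 biliary markers were positive (median 0.23, 5 without overlap higher and 1 lower) and 7 of 8 proliferation markers negative (median -0.20, 6 without overlap lower), none called. The summed hepatocyte level was 152 to 167 CPM in AG120 cells against 114 to 127 CPM in vehicle cells. The part of these markers in the result was not tested. SQLE had 353, 332 and 333 CPM in AG120 cells against 289, 276 and 257 CPM in vehicle cells, and its log2 fold change was 0.31 ± 0.078 (SE; adjusted p = 0.2699). HMGCS1 had 241, 265 and 285 CPM in AG120 cells against 217, 209 and 193 CPM in vehicle cells, and its log2 fold change was 0.36 ± 0.097 (SE; adjusted p = 0.3069). TM7SF2 had the largest estimate, 0.64 ± 0.13 (SE; adjusted p = 0.1404).

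**Figure D4:**
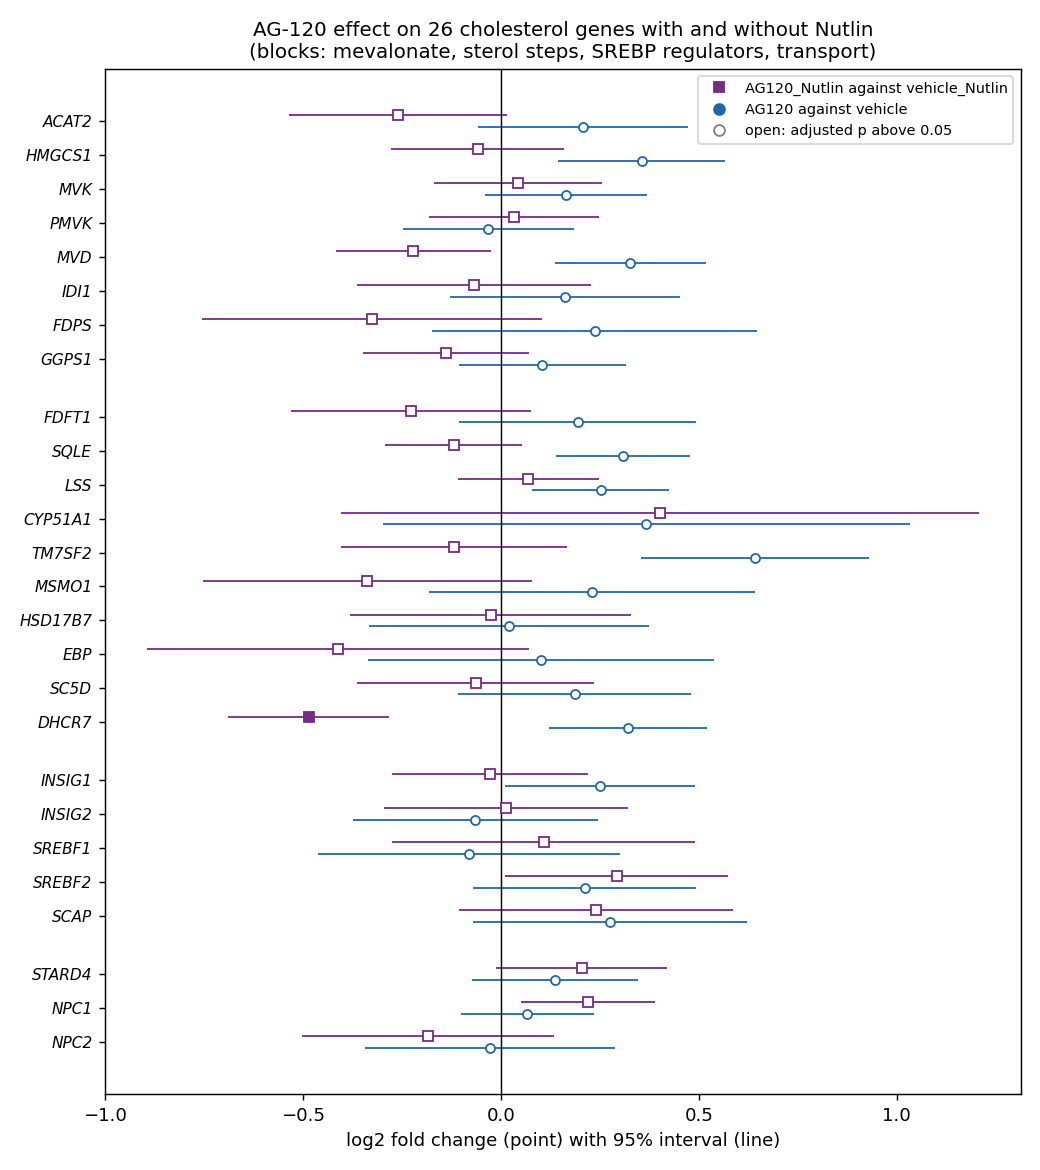
Log2 fold change with AG-120 (x axis; lines are 95% intervals) of the 26 tested cholesterol genes for AG120_Nutlin against vehicle_Nutlin (squares) and AG120 against vehicle (circles); open symbols did not pass the test. The filled square is DHCR7 at -0.49, and 22 of the 26 circles lie right of 0.

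The Nutlin response itself was compared between pretreatments by the interaction term, the response in AG-120 cells minus that in vehicle cells. DHCR7 was called, at -0.81 ± 0.13 (SE; adjusted p = 0.01907), where 0.331% of all tested genes were called lower and 0.0319% higher. Its fold fall was 7.14 in AG-120 cells and 4.08 in vehicle cells. The call was lost without AG120_Nutlin replicate 1 (adjusted p = 0.09699) or 3 (0.08339), AG120 replicate 2 (0.05666) or 3 (0.05749), or vehicle replicate 2 (0.08245) or 3 (0.08526). It was also lost with a replicate block (adjusted p = 0.0609). The estimate was negative for 19 of 26 genes, where 51% of all tested genes were negative, with a median of -0.24 beside -0.010 over all tested genes. Of the 9 biliary markers 7 were negative, with a median of -0.50, 6 at an unadjusted p under 0.05 and 1 called (KRT7, at -1.18), and of the fibroblast markers PDGFRB was called, at -1.23. No proliferation or hepatocyte marker was called, with medians of -0.10 and -0.09. The part of these markers in the result was not tested. The next genes were TM7SF2 at -0.76 ± 0.19 (SE; adjusted p = 0.1309), MVD at -0.55 ± 0.13 (SE; adjusted p = 0.1092) and SQLE at -0.43 ± 0.11 (SE; adjusted p = 0.1561), none called, and all 3 were called without vehicle_Nutlin replicate 3 (adjusted p = 0.03953, 0.02914 and 0.02818), by DESeq2 (0.03393, 0.01432 and 0.02759) and by limma voom (0.02526, 0.01898 and 0.02014). None of the 46 other sterol genes was called by edgeR for AG-120 or the interaction, with 6, 5 and 3 at an unadjusted p under 0.05 with Nutlin, without Nutlin and for the interaction.

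**Figure D5:**
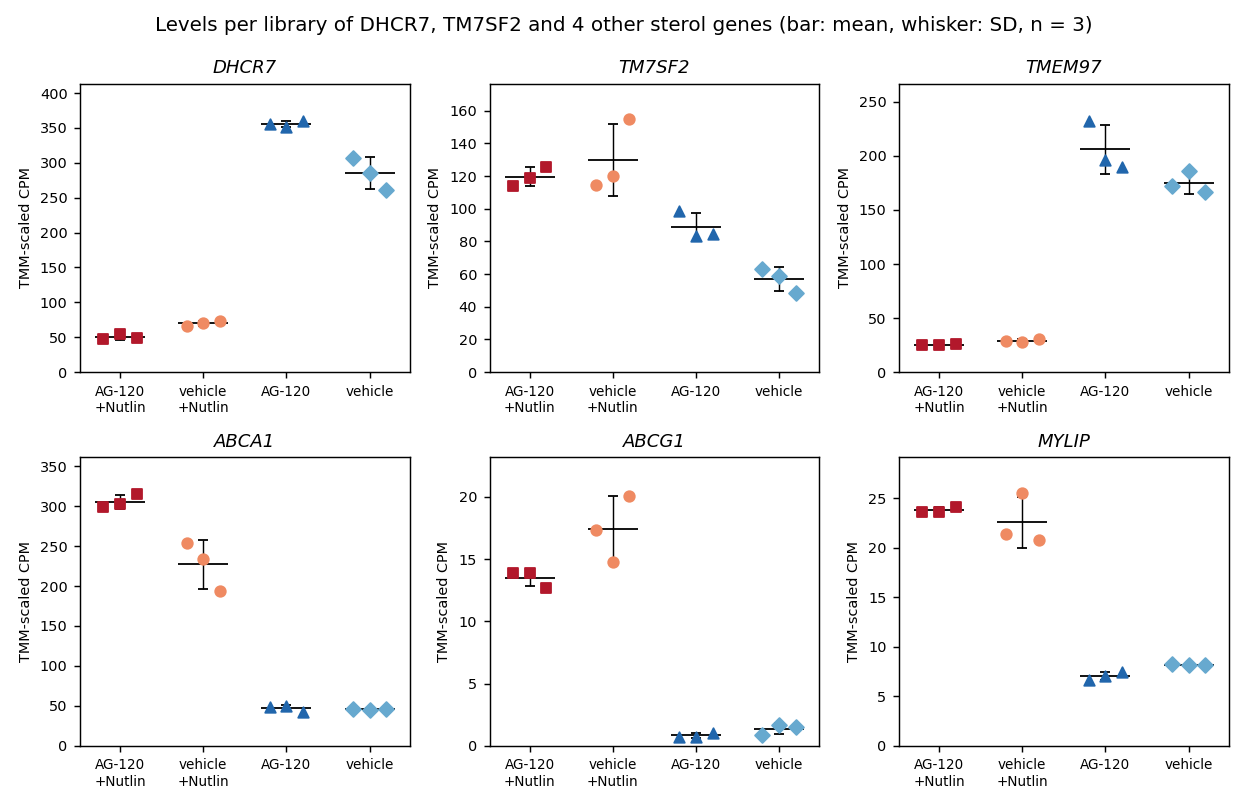
TMM-scaled CPM (y axis, from 0) in each library of the 4 groups for DHCR7, TM7SF2, TMEM97, ABCA1, ABCG1 and MYLIP; bars are means and whiskers SD, n = 3. DHCR7 and TMEM97 are low in the 6 Nutlin libraries and ABCA1, ABCG1 and MYLIP high, and DHCR7 is lower in AG120_Nutlin than in vehicle_Nutlin libraries.

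Gene spans of 16 of the 27 genes overlap another entry of the table, and the sources used here do not say whether counting used strand, so shared reads cannot be told apart. The overlapping entries with most counts were TCP1 at ACAT2 (43549 counts beside 12619 for ACAT2), RAI1 at SREBF1 (30392 beside 50325) and VPS51 at TM7SF2 (28751 beside 23569). ARID4B at GGPS1 held 12617 counts beside 11770, and MMAB at MVK 10763 beside 11682. FDPS, CYP51A1 and HSD17B7 have pseudogene copies that can share reads, so their levels are uncertain.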

How the data were processed

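Poly(A) RNA of RBE cells was sequenced as paired reads, per the labels' protocols. The authors deposited raw read counts per gene symbol for 12 libraries, with no normalization. Per the submitters' processing notes, Partek, STAR, HTSeq and DESeq2 and the build hg19 were used; versions, and which tool counted, are not given in the sources used here. Gene positions are hg19 from the deposited table, with 1 subtracted from the stop, tested on 13 mitochondrial reading frames.

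The analysis used edgeR 4.0.16 under R 4.3.3. The edgeR filter filterByExpr kept 15691 of 55773 entries, TMM scaled the libraries, and all 12 entered a single quasi-likelihood model whose terms were the groups. The 5 comparisons used glmQLFTest, with Benjamini-Hochberg adjustment over the genes of each comparison. SE is the size of the log2 fold change over the root of F, and intervals are 95%. Levels per kilobase use summed exon length from GENCODE. The fit was tested on simulated data. No libraries were identical. Alternatives were DESeq2 1.42.0, limma 3.58.1 voom with sample weights, other scalings and filters, a replicate block, only the groups compared, and leaving out libraries.

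The genes and lists were chosen with earlier results of these data known. All 27 genes were described, and of each list of other sterol genes at most 3 were named, those with the smallest adjusted p in the Nutlin response of AG-120 cells. Some genes of these lists are not reported here. Depth limits precision, and read counts without molecular identifiers are not independent molecules.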

Additional observations from a re-analysis of the deposited data

Results flagged for a closer look

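DHCR7 was picked out because its Nutlin response differed between pretreatments by a test of the difference itself. Its fall was larger in AG-120 cells (-2.84 on the log2 scale) than in vehicle cells (-2.03), a difference of -0.81 with an adjusted p = 0.01907 by edgeR over all tested genes. That difference holds both a higher level in AG120 than in vehicle cells and a lower level in AG120_Nutlin than in vehicle_Nutlin cells. The first was 0.32 ± 0.092 (SE; adjusted p = 0.3394 by edgeR), without overlap and not called, and the second was -0.49. Vehicle_Nutlin replicate 3, which stood apart, had 73.3 CPM of DHCR7 beside 66.1 and 70.2 CPM in the other libraries of its group. The call of the difference of -0.81 was lost in 6 of the 12 fits that left out 1 library, with an adjusted p = 0.05666 to 0.09699. With a replicate block the difference was -0.81 and the call was lost (adjusted p = 0.0609). Without the 3 libraries that stood apart it was -0.71, in a fit that leaves 1 vehicle_Nutlin library.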

How the results depend on the processing

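Counts of cholesterol genes that fell or rose with Nutlin stayed within 1.5 times under every alternative run, and all 17 and 15 genes that fell remained called. Of 1340 single-gene values recomputed, 1249 kept direction and side of the threshold, 16 lost the call, 54 gained it and 21 changed sign, all 21 for genes not called in the comparisons above. HSD17B7 in AG-120 cells was -0.029 with library totals, -0.0010 with no filter, -0.15 with voom and -0.17 without the 3 libraries that stood apart, which alone of these was called (adjusted p = 0.03808). In vehicle cells it was -0.029 with library totals, -0.093 with voom and -0.11 without the 3 libraries. NPC1 in vehicle cells was -0.087 with library totals, -0.014 with no filter and -0.00033 with 1 CPM in 3 libraries. SREBF1 in vehicle cells was 0.034 with voom and 0.047 without the 3 libraries. Leaving out 1 library gave -0.16 to 0.13 for HSD17B7 in AG-120 cells, and in vehicle cells -0.12 to 0.15 for HSD17B7, -0.028 to 0.032 for NPC1, -0.29 to 0.090 for SREBF1 and -0.24 to 0.0057 for SREBF2. Library totals moved the median of all genes in vehicle cells to -0.10.

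Counts for AG-120 moved more, and the cause was not tested. With Nutlin, 68 higher and 303 lower genes of all tested were called, against 238 higher and 599 lower by DESeq2, 594 higher and 678 lower with no filter, 0 higher and 15 lower with only the groups compared (and 0 cholesterol genes), 376 higher and 603 lower by voom and 629 higher and 745 lower without the 3 libraries. Without Nutlin, 8 higher and 0 lower were called, against 74 higher and 16 lower by DESeq2, 73 higher and 31 lower with no filter, 24 higher and 5 lower with only the groups compared, 601 higher and 318 lower by voom and 608 higher and 300 lower without the 3 libraries, and 2 lower with library totals or with 1 CPM in 3 libraries. Cholesterol genes called higher there were 2, 1, 11 and 11 by DESeq2, no filter, voom and without the 3 libraries. For the interaction, 5 higher and 52 lower were called, against 23 higher and 177 lower by DESeq2, 80 higher and 203 lower with no filter, 75 higher and 358 lower by voom and 185 higher and 452 lower without the 3 libraries, with 4, 2, 4 and 6 cholesterol genes lower.

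Leaving out 1 library in turn gave, with Nutlin, 5 to 418 genes higher, 56 to 619 lower and 0 to 2 cholesterol genes lower; without Nutlin 1 to 198 higher, 0 to 43 lower and 0 to 6 cholesterol genes higher; and for the interaction 1 to 36 higher, 22 to 207 lower and 0 to 4 cholesterol genes lower. Same-numbered replicates did not pair: correlations of their deviations ran from -0.224 to 0.116 over 18 pairs, with 1 over 0.1. The replicate block gave 33 genes higher and 178 lower with Nutlin, 4 higher without Nutlin, and 2 higher and 30 lower for the interaction, where 0 cholesterol genes were called (DHCR7 adjusted p = 0.0609).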
